A study of Mus musculus with 12 samples.

Results

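Rows of the deposited count table were taken for mature miRs of 3 metabolic groups, miR-33, miR-103 with miR-107, and miR-378a, by name alone, which gave 5 of the 1927 rows in the table. The rows are mmu-miR-33-5p, mmu-miR-33-3p, mmu-miR-103-3p/mmu-miR-107-3p, mmu-miR-378a-3p/mmu-miR-378b/mmu-miR-378c and mmu-miR-378a-5p, where a slash joins mature miRs that the counting did not separate, and the prefix for mouse is left out from here on. The measurement was small RNA sequencing of E18.5 livers from 5 WT and 7 Mir483Pat-KO female fetuses, littermates on a C57BL/6J background, with 1 library for each fetus. Mir483Pat-KO fetuses inherited from their father a Cre-made deletion of Mir483, a miR gene in an intron of the imprinted growth factor gene Igf2, and WT fetuses carried no deletion. The allele came from JM8.F6 ES cells of the C57BL/6N strain, and cells of 2 clones, F4 and E12, were injected. Which clone and which litter each fetus descended from is not given in the sources used here. The deletion is germline, so every cell of the liver carries it, and in a whole-liver library fewer cells of a type and less of a miR per cell cannot be told apart.

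A mature miR guides a silencing complex to mRNAs that pair with its seed, bases 2 to 8 from the 5′ end, and lowers the output of those mRNAs. miR-33 lies within the gene of the sterol regulator SREBP2 and is known for repressing the cholesterol exporter Abca1 and genes of fatty acid oxidation. miR-103 and miR-107 lie within genes of pantothenate kinases, the enzymes that start coenzyme A synthesis, and are known for lowering insulin sensitivity, with caveolin-1 among their targets. miR-378a lies within the gene of the coactivator PGC-1β and is known for effects on mitochondrial energy use and lipid handling.

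The mature sequences are shown because they set which reads can be told apart and which mRNAs a miR can pair with. They are from RefSeq on mouse assembly GRCm38.p6, which held 4 of the 6 mature names searched for these groups, and the seed is in capitals, written 5′ to 3′. The last 3 are the opposite strands of the miR-103 and miR-107 hairpins, shown because their bases, unlike those of the 3p strands, gave 2 separate rows.
miR-33-5p: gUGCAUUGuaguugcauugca
miR-33-3p: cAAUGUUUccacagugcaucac
miR-103-3p: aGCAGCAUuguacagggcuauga
miR-107-3p: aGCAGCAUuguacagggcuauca
miR-107-5p: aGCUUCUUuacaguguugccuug
miR-103-1-5p: gGCUUCUUuacagugcugccuug
miR-103-2-5p: aGCUUCUUuacagugcugccuug

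miR-103-3p and miR-107-3p are identical over 22 of 23 bases (95.7%), and the substitution G22C from miR-103-3p to miR-107-3p, counted from the 5′ end, is next to the last base. They share 1 seed, so the joint row counts molecules with the same seed, whatever their locus. No other mature miR in the RefSeq table of 1679 had the seed of miR-103-3p, and none shared the seed of miR-33-5p or of miR-33-3p. On the other strand, miR-103-1-5p differs from miR-103-2-5p by G1A, and miR-103-2-5p differs from miR-107-5p by C16U.

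The hairpins Mir33, Mir103-1, Mir103-2, Mir107 and Mir378a lie in introns of their host genes, on the host's strand. They overlap no exon of a coding transcript of the host in the GENCODE annotation. The hairpins of miR-378b and miR-378c, which share a row with miR-378a-3p, were not located. On GRCm38, Mir33 spans chr15:82198122-82198190 on the plus strand, in intron 17 of transcript Srebf2-203, which has 21 exons. Mir103-1 spans chr11:35782396-35782481 on the plus strand, in intron 5 of Pank3-201, and Mir103-2 spans chr2:131288052-131288137 on the plus strand, in intron 5 of Pank2-204. Mir107 spans chr19:34820687-34820773 on the minus strand, in intron 5 of Pank1-201. The 3 Pank transcripts each have 7 exons, so the 3 hairpins sit in the intron of the same number in 3 related genes. Mir378a lies in intron 1 of Ppargc1b-201, which has 13 exons. The hairpins of Mir33 and Mir107 are shown with both mature strands in capitals, to place the 5p and 3p reads compared later.
Mir33: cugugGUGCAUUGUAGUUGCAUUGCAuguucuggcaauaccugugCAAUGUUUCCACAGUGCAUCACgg
Mir107: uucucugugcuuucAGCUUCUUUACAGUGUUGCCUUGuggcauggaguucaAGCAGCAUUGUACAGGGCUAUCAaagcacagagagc

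Total counts were 711810 to 1211160 per WT library and 658665 to 921068 per Mir483Pat-KO library, so that 3 counts corresponded to 2.58 to 4.68 CPM. CPM here are counts scaled to a common library total and then by TMM, a factor that sets most miRs equal between libraries. The deletion was visible in every Mir483Pat-KO library, with miR-483-3p at 1071 ± 103.35 CPM in WT and 15.2 ± 10.8 in Mir483Pat-KO (mean ± SD, n = 5 and n = 7), and miR-483-5p at 299.7 ± 24.9 and 1.39 ± 2.39 CPM. The hepatocyte list led by miR-122-5p summed to 177970 to 206387 CPM in WT and 169722 to 218616 CPM in Mir483Pat-KO, which matches the labelled tissue, and the striated muscle list summed to at most 37.9 CPM. The library indices were 37 to 41 in WT and 42 to 48 in Mir483Pat-KO, so index order and genotype cannot be told apart. Nothing in the table is a count of 1, and miR-155-5p was listed at 0 in 9 libraries and at 149 to 298 counts in the other 3. A listed 0 is therefore given as such, with no upper limit for the level.

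The 5 rows covered a wide range of levels. Over 12 libraries, miR-103-3p/miR-107-3p held 41904 reads, 0.412% of all, and miR-378a-3p/miR-378b/miR-378c held 18192 reads, 0.179% of all. miR-33-5p held 633 reads, miR-378a-5p held 458 and miR-33-3p held 15. By mean level among the 388 miRs that passed edgeR's filter on low counts, miR-103-3p/miR-107-3p ranked 35, miR-378a-3p/miR-378b/miR-378c 53, miR-33-5p 228 and miR-378a-5p 250, while miR-33-3p did not pass.

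The order of levels was steady from liver to liver except at a single place. miR-103-3p/miR-107-3p averaged 4148 CPM against 1778 CPM for miR-378a-3p/miR-378b/miR-378c, was the higher in 12 of 12 libraries, and exceeded it by 1.92 to 2.72 times. The lowest miR-378a-3p/miR-378b/miR-378c library was at 1525 CPM and the highest miR-33-5p library at 82.9 CPM. miR-33-5p averaged 62.8 CPM and miR-378a-5p 44.4 CPM, and their ranges overlapped. Within libraries miR-33-5p was the higher in 11 of 12, at 0.823 to 1.94 times miR-378a-5p. Sequencing kits favour some miRs over others, so these levels order the reads and not necessarily the molecules.

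**Figure D1:**
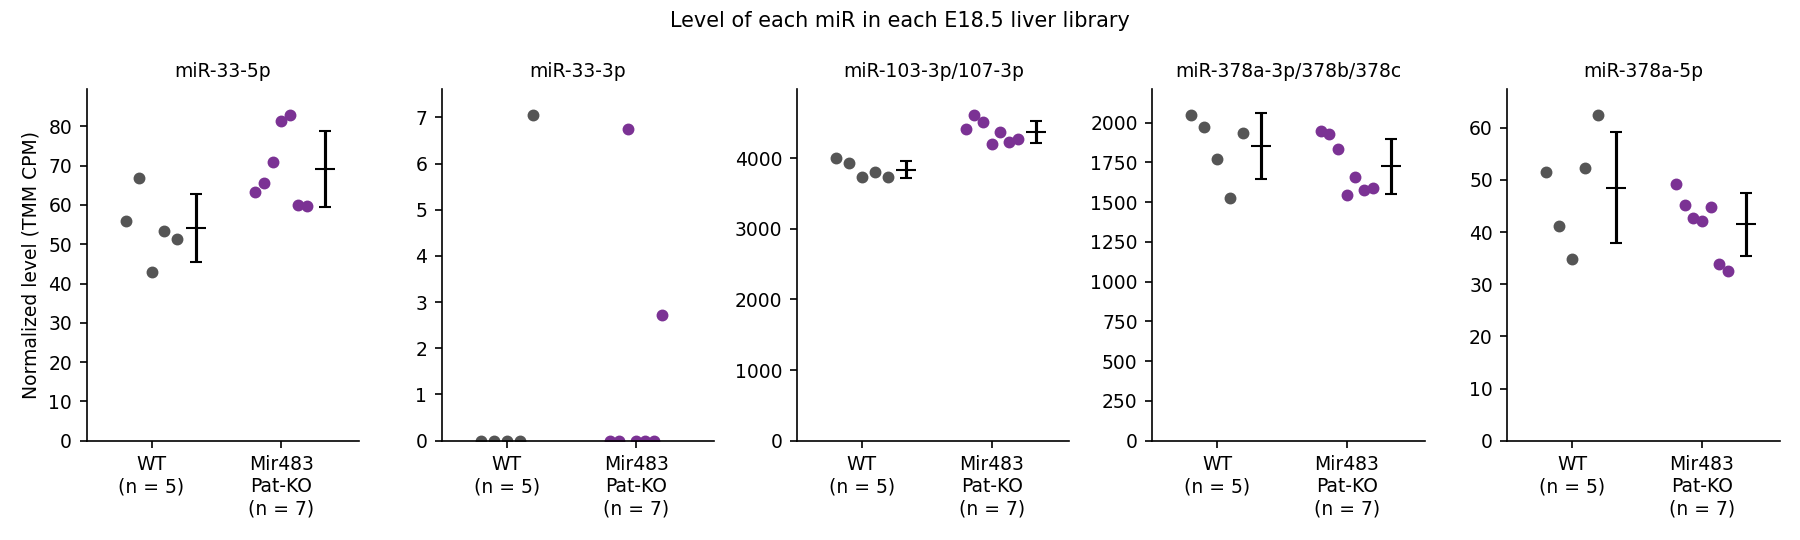
Level of each of the 5 rows (y axis, TMM CPM, from 0, with its own scale in each panel) in each library of WT (grey, n = 5) and Mir483Pat-KO (purple, n = 7); bars beside the points are mean ± SD and are left out for miR-33-3p. All Mir483Pat-KO points of miR-103-3p/miR-107-3p, 4200 to 4609 CPM, lie above the WT points, 3726 to 3996 CPM, and the other panels overlap.

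miR-103-3p/miR-107-3p, the joint row of the Pank miRs, differed most clearly between genotypes, although the difference did not pass the threshold. The WT livers held 3996, 3927, 3727, 3802 and 3726 CPM (2775 to 4653 counts). The Mir483Pat-KO livers held 4417, 4609, 4513, 4200, 4368, 4222 and 4273 CPM (2957 to 4013 counts). On this TMM scale every Mir483Pat-KO liver was above every WT liver, with the nearest pair at 3996 and 4200 CPM. Scaled by library total alone the groups overlapped, since WT replicate 2 was at 4103 CPM and Mir483Pat-KO replicate 6 at 4051 CPM, and the log2 fold change was 0.12. The means were 3836 ± 121 CPM in WT and 4372 ± 153 CPM in Mir483Pat-KO (SD, n = 5 and n = 7), a log2 fold change of 0.19 with SE 0.050 and a 95% interval of 0.083 to 0.29. In percent this was 14.0% higher, with an interval of 5.93% to 22.6%. By edgeR's quasi-likelihood F-test the adjusted p was 0.0628 (Benjamini-Hochberg) over the 388 miRs tested, and 9 miRs had a lower unadjusted p.

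A separation of all libraries by genotype was uncommon among the miRs tested. After TMM the groups did not overlap for 11 of 388 miRs (2.84%), and every Mir483Pat-KO library was above every WT library for 6 (1.55%). A two-sided exact permutation test compared the mean TMM CPM of miR-103-3p/miR-107-3p over every assignment of the 12 libraries to groups of 5 and 7. This exact permutation test gave p = 0.00126, the smallest that this design allows, and an adjusted p of 0.0817. That p follows from the separation after TMM, and on library totals alone, a setting chosen after seeing the data, the exact permutation test gave p = 0.00505 and an adjusted p of 0.115, with 6 of 7 Mir483Pat-KO livers above every WT liver. On the TMM scale the exact permutation test put 0 of the 388 miRs under an adjusted p of 0.05. Even the deleted miR-483 strands did not pass it, so its adjusted p is limited by the number of libraries. With the threshold at an adjusted p of 0.05, edgeR called 8 of the 388 miRs (2.06%), 4 higher (1.03%) and 4 lower (1.03%), and 0 of the 4 metabolic rows tested were among them. At an unadjusted p under 0.05, edgeR passed 68 of 388 miRs (17.5%), 31 of them lower (7.99%), and miR-103-3p/miR-107-3p and miR-33-5p were among the higher. DESeq2 and limma-voom on the same counts did call miR-103-3p/miR-107-3p, at adjusted p of 0.000231 and 0.0430, so the call depends on the tool. Over all 388 miRs DESeq2 called 27 and limma-voom 10. Over 13 alternatives its adjusted p lay between 0.000231 and 0.352.

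The measured covariates of the libraries and the cell type lists are set beside this row as a description. Within the lower range of animal numbers, miR-103-3p/miR-107-3p averaged 3863 ± 121 CPM in 4 WT livers and 4435 ± 175 CPM in 4 Mir483Pat-KO livers. Along the index order its log2 level changed by -0.025 per index within WT and by -0.016 within Mir483Pat-KO. These slopes rest on 5 and 7 libraries, and index order and genotype cannot be told apart. The erythroid list (miR-451a, miR-144-3p, miR-144-5p and miR-486a-5p, all of red cells and their precursors) had 4 of 4 log2 fold changes above 0 (50.3% of all miRs tested were above 0), a median of 0.19 and 0 calls by edgeR, DESeq2 or limma-voom (2 had an unadjusted p under 0.05 in edgeR), and no defining marker was at 0. Its sum was 23848 to 31974 CPM in WT and 25913 to 37810 CPM in Mir483Pat-KO. Over 13 alternatives the log2 fold change of its row miR-144-3p was 0.00031 to 0.36. Of the white blood cell list, 3 of 5 rows were tested, all 3 were above 0 with a median of 0.14, and 0 were called or had an unadjusted p under 0.05 in edgeR (0 called by DESeq2 or limma-voom). Its sum was 11343 to 14595 CPM in WT and 13119 to 14813 CPM in Mir483Pat-KO. The other lists tested had fewer rows above 0, with the hepatocyte list close to all miRs tested (50.3% above 0). Log2 fold changes above 0 were 2 of 5 for hepatocytes (median -0.032), 0 of 2 for endothelium (-0.19) and 1 of 5 for stellate cells and smooth muscle (-0.073). In these 3 lists edgeR, DESeq2 and limma-voom called 0 rows. miR-199a-3p/miR-199b-3p of the stellate list, at 0.47 (SE 0.17), had an unadjusted p under 0.05 in edgeR. Both strands of miR-144, miR-142a, miR-122 and miR-126a are in these lists, so the rows of a list are not all independent. The part of any cell type in the miR-103-3p/miR-107-3p values was not tested.

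miR-33-5p, the guide strand from the Srebf2 intron, had a higher mean in Mir483Pat-KO that did not pass the test. The WT livers held 55.8, 67.0, 42.98, 53.4 and 51.4 CPM (32 to 65 counts). The Mir483Pat-KO livers held 63.2, 65.5, 70.8, 81.4, 82.9, 60.0 and 59.8 CPM (42 to 63 counts). The groups overlapped through a single WT liver at 67.0 CPM, while the other 4 WT livers were below every Mir483Pat-KO liver. The means were 54.1 ± 8.66 and 69.1 ± 9.68 CPM (SD, n = 5 and n = 7), a log2 fold change of 0.35 with SE 0.14 and a 95% interval of 0.049 to 0.64. edgeR's quasi-likelihood F-test gave an adjusted p of 0.191, and the exact permutation test gave p = 0.0227 with an adjusted p of 0.232.

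miR-33-3p, the other strand of the same hairpin, was near the limit of detection. It was listed at 7 counts in WT replicate 5, at 6 in Mir483Pat-KO replicate 3, at 2 in Mir483Pat-KO replicate 7 and at 0 in the other 9 libraries. These are 7.05, 6.75 and 2.72 CPM, and no test was made.

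miR-378a-3p/miR-378b/miR-378c, the row that holds the main strand from the Ppargc1b intron, was spread over the same range in both genotypes. The WT livers held 2048, 1972, 1774, 1525 and 1939 CPM. The Mir483Pat-KO livers held 1948, 1927, 1833, 1545, 1662, 1580 and 1588 CPM. Both the highest and the lowest liver of all were WT. The means were 1852 ± 208 and 1726 ± 172 CPM (SD, n = 5 and n = 7), and the log2 fold change was -0.10 with SE 0.085 and a 95% interval of -0.28 to 0.079. The adjusted p of edgeR's quasi-likelihood F-test was 0.605. The interval leaves room for a level 17.8% lower or 5.60% higher in Mir483Pat-KO. When the index number was added to the fit, the estimate turned to 0.23 with SE 0.13, and its log2 level changed by -0.053 per index within WT and -0.057 within Mir483Pat-KO. In the lower animal-number range the row averaged 1830 ± 234 CPM in 4 WT livers and 1813 ± 186 CPM in 4 Mir483Pat-KO livers.

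miR-378a-5p, the other strand of the Mir378a hairpin, had a lower mean in Mir483Pat-KO that did not pass the test either. The WT livers held 51.5, 41.2, 34.9, 52.4 and 62.4 CPM (26 to 62 counts). The Mir483Pat-KO livers held 49.2, 45.2, 42.7, 42.1, 44.7, 33.95 and 32.6 CPM (24 to 38 counts). In Mir483Pat-KO 2 livers were below every WT liver, and in WT 3 livers were above every Mir483Pat-KO liver. The means were 48.5 ± 10.7 and 41.5 ± 6.06 CPM (SD, n = 5 and n = 7), with a log2 fold change of -0.23, SE 0.17 and a 95% interval of -0.59 to 0.12. The adjusted p of edgeR's quasi-likelihood F-test was 0.521, and in the lower animal-number range alone the log2 fold change was -0.033.

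**Figure D2:**
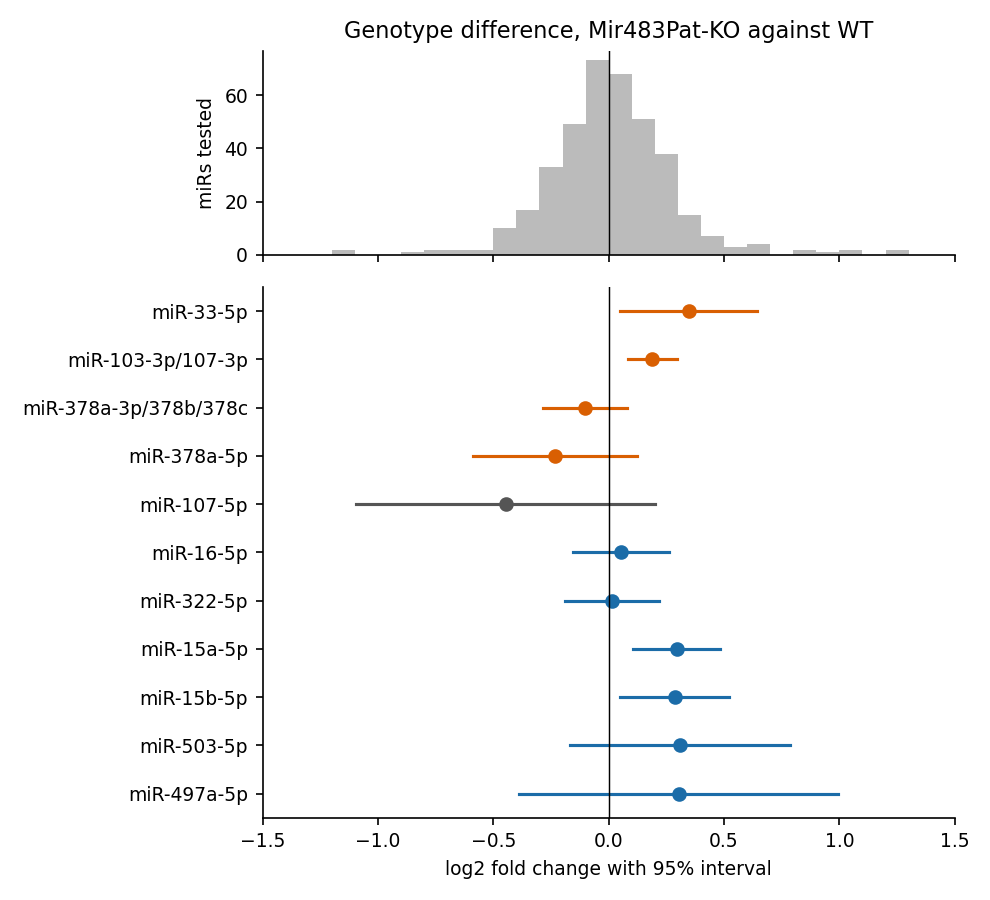
Upper panel, number of miRs tested (y axis) by log2 fold change of Mir483Pat-KO over WT (x axis, cut at 1.5 on either side); lower panel, log2 fold change (points) with 95% interval (lines) for the metabolic rows (orange), miR-107-5p (grey) and other miRs that start with the shared bases AGCAGC (blue). The intervals of miR-103-3p/miR-107-3p, 0.083 to 0.29, and miR-33-5p, 0.049 to 0.64, lie above 0, and those of both miR-378a rows cross 0.

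miR-103-3p/miR-107-3p also had the smallest spread between fetuses of all 388 miRs tested. Its SD of log2 CPM within genotype was 0.048, against a median of 0.24 over all miRs tested and of 0.12 over the 71 miRs whose mean log2 CPM reached 10. The next smallest were miR-127-3p at 0.059, miR-21a-5p at 0.068 and miR-25-3p at 0.068, among them rows with more reads. Its coefficient of variation was 3.17% in WT and 3.49% in Mir483Pat-KO, against 1.71% from counting alone at its median count.

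The other rows varied more. The SD of log2 CPM was 0.15 for miR-378a-3p/miR-378b/miR-378c, and 97 miRs had a smaller one. For that row the coefficient of variation was 11.2% in WT and 9.98% in Mir483Pat-KO against 2.68% from counting, so its spread lies mostly outside counting error. miR-33-5p varied by 16% and 14.0% against 13.9% from counting, and miR-378a-5p by 22.02% and 14.6% against 17.0%. At 24 to 65 counts per library, counting alone gives a spread near that of these 2 rows, except for miR-378a-5p in WT, which varied more. The coefficient of variation that edgeR fitted beyond counting was 0.136 for miR-33-5p and 0.160 for miR-378a-5p. Depth thus limits how small a difference between genotypes these 2 rows can show.

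**Figure D3:**
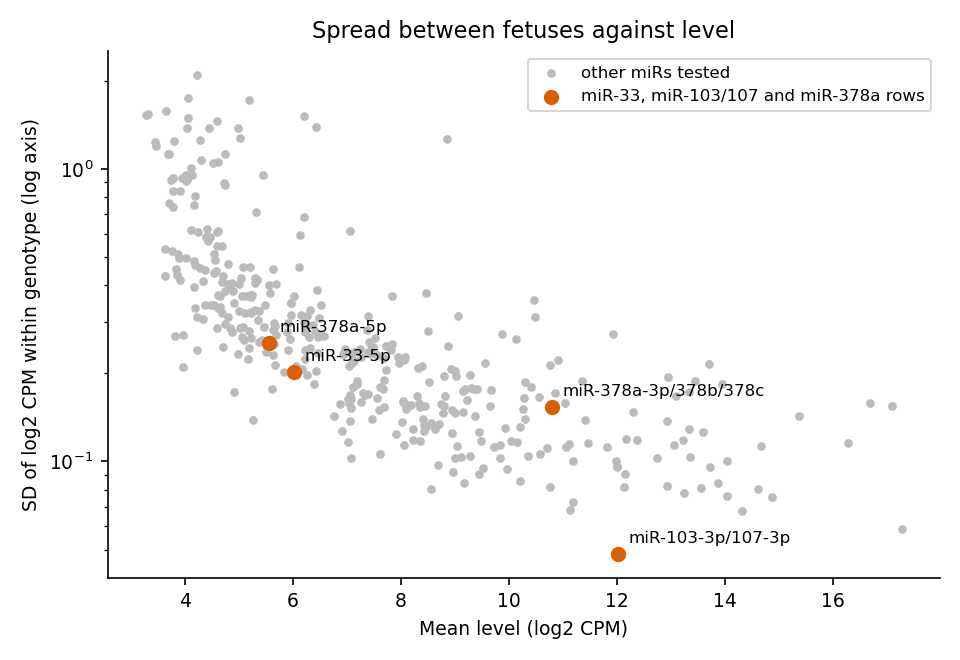
SD of log2 CPM within genotype (y axis, log scale) against mean log2 CPM (x axis) for the 388 miRs tested (grey), with the 4 metabolic rows tested in orange. The spread falls with level, and miR-103-3p/miR-107-3p is the lowest point, at 0.048.

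The hairpins were read from opposite strands. Of the 648 reads listed for Mir33, 97.7% were on the 5p strand (exact 95% interval 96.2% to 98.7%, counting error only), or 87.9% to 100% in WT libraries and 91.3% to 100% in Mir483Pat-KO libraries. This share counts the 9 listed zeros of miR-33-3p as measured, and in the 3 libraries that list the strand the 5p share was 87.9%, 91.3% and 95.7%. For miR-378a the 5p strand took 2.46% of 18650 reads (exact interval 2.24% to 2.69%), with the 3p row also holding any reads of miR-378b and miR-378c. The 5p share was 2.57 ± 0.625% in WT and 2.35 ± 0.245% in Mir483Pat-KO. The log2 ratio of 5p to 3p reads differed by -0.10, with an exact permutation p of 0.498 and 0.853 after adjustment over the 108 hairpins with both strands tested.

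miR-107-5p is the strand that tells Mir107 apart from the Mir103 hairpins, whose shared 3p row it cannot divide. It held 120 reads, 5 to 17 per library, against 8 reads for miR-103-1-5p/miR-103-2-5p, which was listed at 0 in 9 libraries. The WT livers held 14.6, 14.4, 16.1, 12.8 and 11.1 CPM of miR-107-5p, and the Mir483Pat-KO livers held 8.43, 10.9, 10.1, 6.78, 15.8, 10.2 and 8.15 CPM. In Mir483Pat-KO 6 of 7 livers were below every WT liver, and 11 of 388 miRs (2.84%) had at least 6 of 7 below. The log2 fold change was -0.45 with SE 0.31, a 95% interval of -1.09 to 0.20 and an adjusted p of 0.487 by edgeR's quasi-likelihood F-test.

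Set against the shared 3p row, the 2 strands lay on opposite sides of 0. Reads of miR-107-5p were 0.359 ± 0.0491% of both rows in WT and 0.229 ± 0.0645% in Mir483Pat-KO (SD, n = 5 and n = 7). The log2 ratio differed by -0.64, with an exact permutation p of 0.00884 and an adjusted p of 0.102 over 108 hairpins. None of the 108 hairpins passed (0 called, 0%), and 22 had an unadjusted exact permutation p under 0.05. The ratio sets 1 locus over 3, and with 5 to 17 counts in the numerator it rests on few reads.

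**Figure D4:**
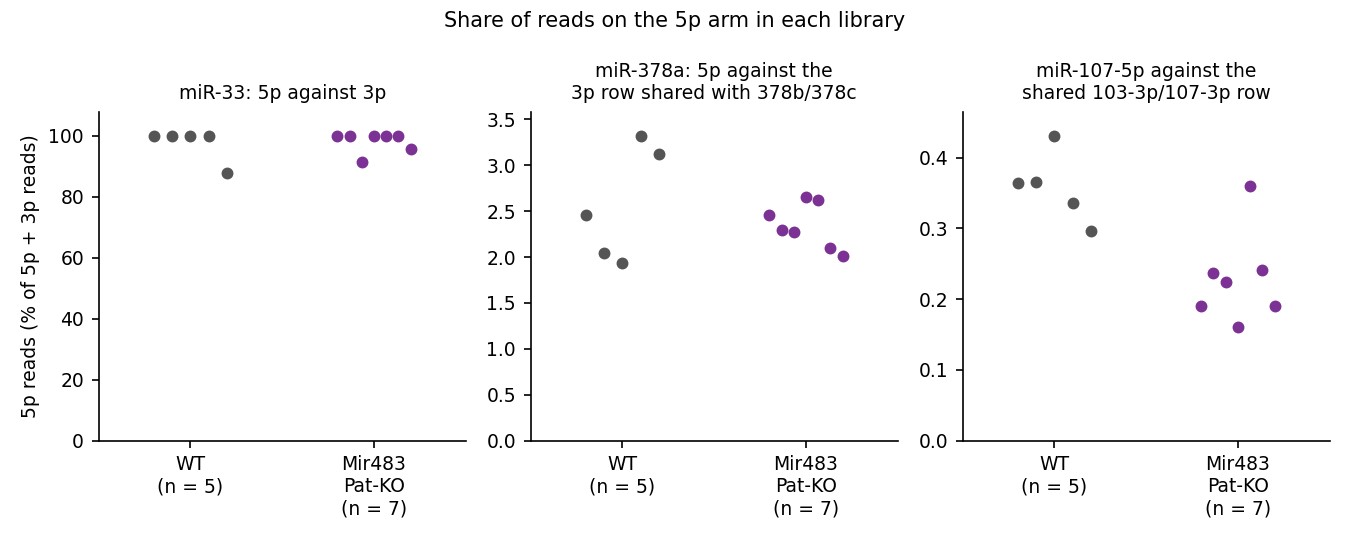
Share of 5p reads among 5p and 3p reads (y axis, percent, from 0, with its own scale in each panel) in each library of WT (grey, n = 5) and Mir483Pat-KO (purple, n = 7) for miR-33, miR-378a and miR-107. The miR-33 points lie at 87.9% or above, the miR-378a points at 3.32% or below, and 6 of 7 Mir483Pat-KO points of miR-107 lie below the WT points.

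miR-103 and miR-107 belong to a wider group of miRs whose first bases hold AGCAGC, which includes miR-15, miR-16, miR-195, miR-322, miR-497 and miR-503. Of the 1679 mature miRs in RefSeq, 13 (0.774%) held AGCAGC within their first 7 bases, and these made 12 rows of the count table, 8 of them with reads. miR-103-3p/miR-107-3p alone held 69.4% of the 60360 reads of these rows, and 6.63 times the reads of miR-16-5p, the next highest. Its share was 68.8 ± 1.83% in WT and 69.8 ± 2.06% in Mir483Pat-KO, with overlapping ranges. Most reads of this group in fetal liver were of the Pank miRs, in both genotypes.

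The rest of the group had 6 rows tested and 0 called by edgeR, with 2 at an unadjusted p under 0.05. DESeq2 called 1 (27 of all 388 miRs) and limma-voom 0 (10 of all 388). Log2 fold changes were above 0 for 6 of 6, against 50.3% of all miRs tested. This was 4 of 6 when scaled by library size alone, and 5 of 6 when TMM left out miR-483 and the 2 most abundant miRs. Their median was 0.29, against 0.0028 over all miRs tested. miR-15a-5p had 384 ± 27.3 CPM in WT and 469.5 ± 60.8 in Mir483Pat-KO, with a log2 fold change of 0.29, SE 0.089 and an adjusted p of 0.0988 by edgeR's quasi-likelihood F-test. miR-16-5p, whose gene copies are clustered with those of miR-15a and miR-15b, was at 0.054 with SE 0.098, and miR-322-5p was at 0.015 with SE 0.096, below 0 under both of those scalings.

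Other miRs tied to the same functions were set beside the 2.06% of all miRs tested that edgeR called. Of a list of miRs linked to lipid handling, 19 of 21 rows were tested, and 5 had an unadjusted p under 0.05 in edgeR (17.5% of all miRs tested did). In this list edgeR called 1, DESeq2 2 (27 of all 388 miRs) and limma-voom 1 (10 of all 388). The row called by edgeR was miR-370-3p, which is known for effects on lipid genes of the liver. It was at 692 ± 73.4 CPM in WT and 1107 ± 246.1 CPM in Mir483Pat-KO, a log2 fold change of 0.68 with SE 0.14 and an adjusted p of 0.0194 by edgeR's quasi-likelihood F-test. Without WT replicate 2 or WT replicate 3 its adjusted p was 0.0764 or 0.0616, and the estimate was 0.47 in the lower animal-number range, with an adjusted p of 0.0993, and -0.12 when the index number entered the fit. In this list 7 log2 fold changes were above 0 and 12 below (49.7% of all miRs tested were below), with a median of -0.032. At the ends among rows of high level stood miR-144-3p at 0.34 (SE 0.14), with miR-370-3p above it, and miR-182-5p at -0.38 (SE 0.12) and miR-26a-5p at -0.24 (SE 0.099), none of these 3 called.

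Of a list of miRs linked to insulin action or secretion, 18 of 20 rows were tested and 0 were called by edgeR (2.06% of all miRs tested were). In edgeR 3 had an unadjusted p under 0.05 (17.5% of all). DESeq2 called 1 (27 of all 388 miRs) and limma-voom 0 (10 of all 388). There were 7 log2 fold changes above 0 and 11 below, with a median of -0.019. miR-22-3p was at 0.15 (SE 0.081) and miR-223-3p at 0.11 (SE 0.090), the highest among rows of high level. The lowest of such rows were miR-182-5p and miR-26a-5p, which both lists hold.

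With genotype means removed, the rows most like each member over the 12 libraries were looked for among 287 miRs, as a description only, since all points share library depth and scaling. miR-103-3p/miR-107-3p was most like miR-1839-5p (r = 0.818), let-7a-5p (0.793) and miR-339-5p (0.775). miR-378a-3p/miR-378b/miR-378c was most like miR-194-5p (0.853), a miR of hepatic and intestinal epithelium, then miR-30d-5p (0.822) and let-7a-5p (0.812). miR-378a-5p was most like miR-223-3p (0.782), miR-574-3p (0.750) and miR-122-3p (0.750), and miR-33-5p was most like miR-675-3p (0.768), miR-25-3p (0.616) and miR-301a-3p (0.601).

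Among the members, miR-103-3p/miR-107-3p and miR-378a-3p/miR-378b/miR-378c had the highest r, 0.715 over 12 libraries. miR-378a-5p and the joint miR-378a-3p/miR-378b/miR-378c row had an r of only 0.355, with the 5p strand at 24 to 62 counts. miR-33-5p had an r of 0.262 with miR-103-3p/miR-107-3p and of 0.063 with miR-378a-3p/miR-378b/miR-378c.

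**Figure D5:**
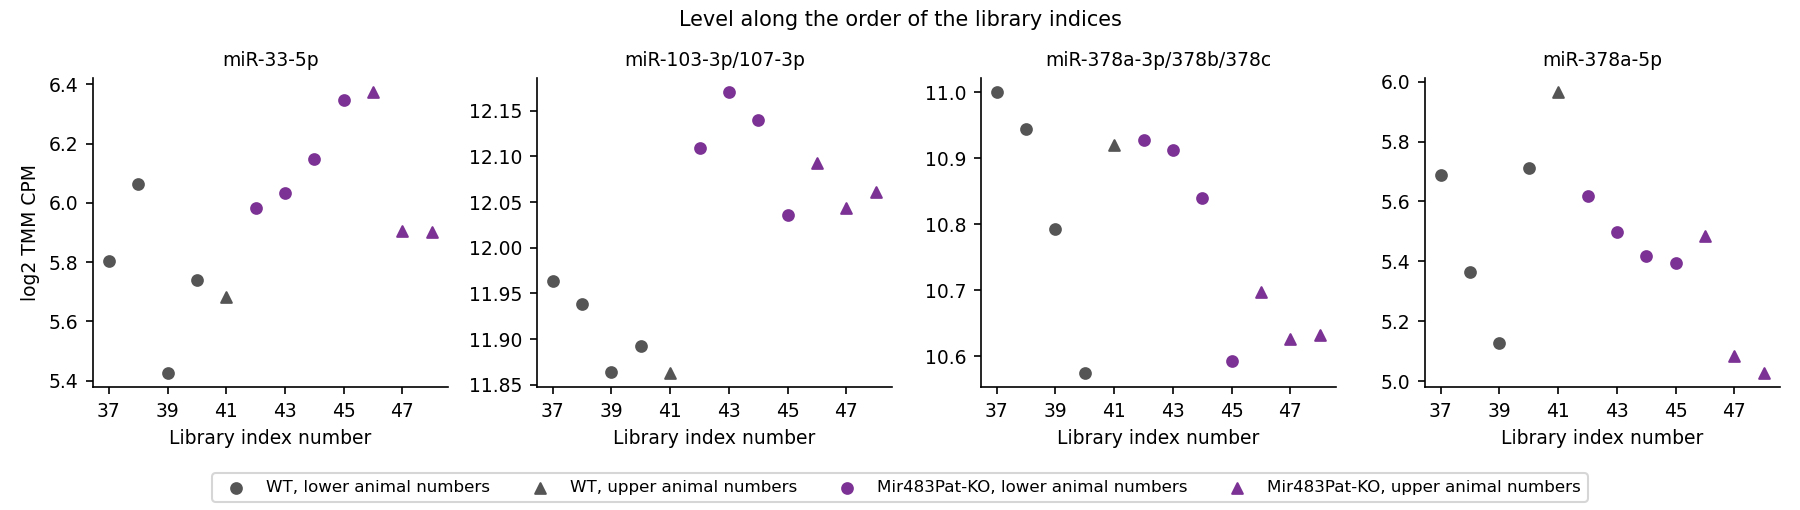
Level (y axis, log2 TMM CPM, not from 0) of the 4 metabolic rows tested against library index number (x axis), for WT (grey) and Mir483Pat-KO (purple), with circles for the lower and triangles for the upper animal numbers. Within each genotype miR-33-5p, miR-103-3p/miR-107-3p and miR-378a-3p/miR-378b/miR-378c have slopes below 0 along the indices. The slope of miR-378a-5p is 0.086 in WT and -0.086 in Mir483Pat-KO. On this scale only miR-103-3p/miR-107-3p has genotypes that do not overlap.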

How the data were processed

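Livers of 5 WT and 7 Mir483Pat-KO female fetuses were profiled by miR-seq (TruSeq Small RNA kit, NovaSeq6000). The authors counted reads per mature miR with miRge 3.0 and deposited these counts as whole numbers, not normalized and not pooled. The miR reference and adapter trimming are not given in the sources used here, nor is how reads of near-identical miRs were shared, so a joint row such as miR-103-3p/miR-107-3p was kept whole.

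Groups and replicate numbers came from the sample labels, and count columns were assigned by the animal number in their names. Starting from the counts, filterByExpr (minimum count 10, minimum total 15) kept 388 of 682 miRs with any count. The kept miRs were scaled by TMM and tested with glmQLFit (legacy = TRUE) and glmQLFTest in edgeR 4.0.16 (R 4.3.3), with genotype as the sole factor, and p-values were adjusted by Benjamini-Hochberg over all 388. Totals of 658665 to 1211160 counts per library set the precision, and intervals of read shares cover counting error only, while those of log2 fold changes come from the edgeR fit and include the spread between fetuses. log2 CPM used a prior count of 2. Strand ratios used a pseudocount of 0.5 and a two-sided exact permutation test over all assignments of the libraries to groups of 5 and 7. P-values set the genotype difference against the spread between fetuses. They take the fetuses as independent, since the litter of each is not given. The edgeR fit was tested on counts simulated from its own fitted means and dispersions. These counts held no index, litter or animal-number effect, so the simulation cannot show how such effects would change the results.

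Named miRs were all metabolic rows, their other strands, called miRs of each list, up to 2 at either end of a list at a mean log2 CPM of at least 8, and the 3 miRs most like each member at a mean of at least 5. The rows and lists were chosen with earlier results of these data known. Alternatives were other scalings and filters, DESeq2 1.42.0, limma-voom 3.58.1, edgeR 4's own dispersion, animal-number range, index number, a replicate block and leaving out each fetus. An exact permutation test on library totals was added after the data were seen. Figures were drawn with matplotlib 3.10.9. mRNA libraries were not analysed here.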

Additional observations from a re-analysis of the deposited data

Results flagged for a closer look

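Of 16 sets of values examined for a single sample far from the others, 8 measures in each genotype, 2 stood out, both of miR-33-3p. Chance alone marks about 1 set in 20 where values vary smoothly, a rate that does not hold for these 2 sets of mostly listed zeros. In WT, replicate 5 was at 7.05 CPM (7 counts) while the other 4 livers were listed at 0. In Mir483Pat-KO, replicate 3 was at 6.75 CPM (6 counts), with replicate 7 at 2 counts and the other 5 livers listed at 0. Both values rest on few reads, and their cause was not tested.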

How the results depend on the processing

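Over 100 refits of the 4 metabolic rows tested, 97 kept their direction and their side of the threshold. The exceptions were miR-103-3p/miR-107-3p under DESeq2 (0.17) and limma-voom (0.19), which called it, and miR-378a-3p/miR-378b/miR-378c when the index number entered the fit, 0.23. The log2 fold change of miR-103-3p/miR-107-3p was 0.12 to 0.30 over 13 alternatives (adjusted p 0.000231 to 0.352) and 0.15 to 0.20 with a fetus left out (adjusted p 0.0502 to 0.184). Leaving out a fetus gave 0.25 to 0.41 for miR-33-5p, -0.17 to -0.063 for miR-378a-3p/miR-378b/miR-378c, -0.35 to -0.13 for miR-378a-5p, and strand ratios of -0.20 to -0.0016 for miR-378a and -0.75 to -0.57 for miR-107. The strand ratio of miR-378a was 0.024 in the lower animal-number range.

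The 8 miRs called became 14 by library size alone (3 higher, 11 lower), 27 by DESeq2, 5 with animal-number range (1 higher, 4 lower), 3 with the index number, 2 in the lower range, 18 at an adjusted p under 0.1, and 3 to 12 with a fetus left out (5 without WT replicate 2, 3 without WT replicate 3 and 4 without any of Mir483Pat-KO replicates 4 to 7). They split 4 higher and 6 lower by RLE and 3 higher and 6 lower when TMM left out miR-483 and the 2 most abundant miRs. Of other miRs named, the index covariate turned miR-15b-5p to -0.11 and miR-370-3p to -0.12, and library size alone turned miR-16-5p to -0.017. miR-322-5p was at -0.052 by library size alone, -0.0078 by the reduced TMM, -0.0083 without a filter, -0.0052 with at least 10 counts in every library, and -0.032 to 0.054 with a fetus left out. Calls were gained by miR-182-5p (DESeq2, and edgeR without WT replicate 2 or Mir483Pat-KO replicate 2), miR-15a-5p (DESeq2) and miR-22-3p (edgeR without WT replicate 1), with adjusted p of 0.0158 to 0.0493. The cause of these shifts was not tested.

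Fetuses that share a replicate number are different animals. The correlation of their deviations was -0.236 to 0.228, and 2 of 10 libraries correlated best with their own number. A replicate block on 10 libraries gave 3 calls and 0.18 for miR-103-3p/miR-107-3p, with an adjusted p of 0.278 in edgeR. Counting alone gives a coefficient of variation of 31.6% for miR-107-5p, 17.0% for miR-378a-5p, 13.9% for miR-33-5p, 2.68% for miR-378a-3p/miR-378b/miR-378c and 1.71% for miR-103-3p/miR-107-3p, which limits what depth can show.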
